A study of Mus musculus with 6 samples.

Results

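The 10 genes described here encode secreted growth factors that act on vessels and on the cells around them: the platelet-derived growth factors Pdgfa, Pdgfb, Pdgfc and Pdgfd, the vascular endothelial growth factors Vegfa, Vegfb and Vegfc, the angiopoietins Angpt1 and Angpt2, and Angptl4, an angiopoietin-like protein. The rule that picks them is a list of gene symbols, and all 10 were found among the 34745 genes of the deposited count table. RNA was sequenced from primary renal fibroblasts of wild-type mice, grown alone (3 libraries) or cocultured for 24 h with Th17 cells (3 libraries). In the coculture the fibroblasts attached for 6 h before the T cells were placed in an insert with 0.4 µm pores, so that a membrane separated them from the fibroblasts whose RNA was sequenced. The Th17 cells were CD4+ T cells from mouse spleen, induced on anti-CD3 and anti-CD28 with IL-1β, IL-6, IL-23 and antibody against IFN-γ. Whether the libraries came from separate cultures or animals was not given in the sources used here, and neither was the age of the mice or whether the wells without T cells held an empty insert. The study's methods name Balb/c mice as its animals, without saying separately from which mice the fibroblasts came. The p-values therefore measure the spread between these libraries, which may be technical.

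PDGF ligands act through the receptor tyrosine kinases PDGFRα and PDGFRβ and are classical mitogens of mesenchymal cells. In the kidney they act on mesangial cells, pericytes and interstitial fibroblasts. VEGF-A maintains blood capillary endothelium, VEGF-C is a lymphatic growth factor, and VEGF-B binds the receptor encoded by Flt1. Angiopoietin-1 activates the endothelial receptor Tie2 and angiopoietin-2 modulates it, whereas ANGPTL4 inhibits lipoprotein lipase.

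The total count was between 12050529 and 13209581 per library, and 3 counts, the limit that a count of 0 allows, corresponded to 0.223 to 0.254 CPM (counts scaled to library size). Fibroblast markers were abundant in both groups: all 10 of a list of 10 passed the filter on low counts, and their summed level was 34122 to 36009 CPM alone and 14248 to 15953 CPM with Th17 cells. Of these, 9 fell, among them Col1a1 (15072 ± 731 to 6228 ± 490 CPM, SD, n = 3), and Dcn, which encodes a collagen-binding proteoglycan, rose. Endothelial markers were scarce, with a summed level of 4.34 to 6.34 CPM alone and 4.83 to 5.48 CPM with Th17 cells over 10 genes, and Emcn, Erg, Robo4 and Cldn5 were at 0 in all libraries. T cell markers summed to 2.02 to 3.32 and 2.12 to 3.35 CPM, with Cd3d, Cd2, Il17a, Il17f and Ccr6 at 0 throughout. Markers of macrophages summed to 58.3 to 61.4 CPM alone and 19.9 to 21.1 CPM with Th17 cells, 5 of the 6 tested of 11 being lower, and Adgre1 and Ptprc had 0 counts in all 3 coculture libraries. Mural cell markers summed to 1476 to 1558 and 457 to 524 CPM, 4 of the 5 tested of 8 being lower, mostly through Des, and epithelial markers to 6.59 to 8.69 and 5.65 to 6.05 CPM. Over all genes tested, 17.1% were higher and 20.0% lower with Th17 cells. In bulk RNA, fewer cells of a type and less RNA per cell cannot be told apart. The part of these cell types in the results on the ligands was not tested.

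Upstream sequences are given for the ligands that passed the test and for Vegfa, the most abundant one, to show what kind of start region each has. RefSeq start sites were matched for 6 of the 10 ligands (Pdgfa, Pdgfc, Pdgfd, Vegfa, Vegfb and Vegfc). Each run holds the 250 bases before the RefSeq start on GRCm38.p6, written 5′ to 3′ on the gene's strand. Capitals mark matches, on either strand, to any of 6 short motifs: the hypoxia response core, whose letters are ACGTG with GCGTG as its other form, the AP-1 site TGANTCA, the GC box GGGCGG, the CCAAT box, the TATA box with the letters TATAAA, and the TEAD motif CATTCC.
Pdgfc, chr3:81036166-81036415, plus strand: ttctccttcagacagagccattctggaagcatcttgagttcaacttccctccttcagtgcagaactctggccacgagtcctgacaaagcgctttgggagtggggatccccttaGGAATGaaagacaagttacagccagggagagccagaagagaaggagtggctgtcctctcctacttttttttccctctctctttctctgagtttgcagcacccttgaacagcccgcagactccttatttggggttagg
Pdgfd, chr9:6168236-6168485, plus strand: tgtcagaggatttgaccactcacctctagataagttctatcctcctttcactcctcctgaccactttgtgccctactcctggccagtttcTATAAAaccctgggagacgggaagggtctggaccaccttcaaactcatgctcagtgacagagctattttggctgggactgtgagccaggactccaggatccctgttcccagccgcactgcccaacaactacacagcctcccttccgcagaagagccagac
Vegfc, chr8:54077282-54077531, plus strand: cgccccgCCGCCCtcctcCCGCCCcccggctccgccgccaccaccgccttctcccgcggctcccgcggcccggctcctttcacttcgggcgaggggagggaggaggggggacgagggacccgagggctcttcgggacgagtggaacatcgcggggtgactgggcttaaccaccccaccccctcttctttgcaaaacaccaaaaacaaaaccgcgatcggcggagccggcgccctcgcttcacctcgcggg
Vegfa, chr17:46032378-46032627, minus strand: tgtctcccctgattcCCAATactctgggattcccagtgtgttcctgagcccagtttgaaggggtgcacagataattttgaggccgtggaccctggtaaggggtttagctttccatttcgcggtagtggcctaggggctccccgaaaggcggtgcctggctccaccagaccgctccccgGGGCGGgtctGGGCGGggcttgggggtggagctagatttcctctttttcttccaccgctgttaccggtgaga

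The sequences differed in base composition. The GC content was 50.8% for Pdgfc and 53.6% for Pdgfd, the ligands that fell, and 71.6% for Vegfc, the ligand that rose, against a median of 52.4% over 32851 mouse promoters. For Vegfa it was 59.2%, for Pdgfa 72.4% and for Vegfb 76.4%. The Pdgfa window belongs to a RefSeq start that lies 2426 bases inside the gene as the deposited table gives it. The Pdgfc window held 1 TEAD motif, read on the opposite strand, which 12.6% of all promoter windows held. The Pdgfd window held a TATAAA, found in 12.4% of windows, which begins 160 bases before the RefSeq start. That start itself lies 126 bases from the start that the deposited table gives. GC boxes, present in 32.7% of windows, occurred 2 times each in Vegfc, Vegfa and Pdgfa and 4 times in Vegfb. The hypoxia core, held by 38.6% of windows, was found in Pdgfa and Vegfb, and not in the printed Vegfa, Vegfc, Pdgfc and Pdgfd windows. No member window held an AP-1 match, which 6.75% of windows held. CCAAT (33.8% of windows) occurred 1 time, in Vegfa. These are matches of letters in a short window and say nothing of binding.

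Coculture with Th17 cells was compared with culture alone to find which ligand transcripts of the fibroblasts changed. Pdgfc and Pdgfd fell, each to less than its lowest level in cells alone, and Vegfc rose. The other ligands that could be tested, Pdgfa, Vegfa, Vegfb, Angpt1, Angpt2 and Angptl4, did not pass the test, and Pdgfb was too rare to be tested. Thus 1 of the 9 ligands tested was higher and 2 were lower by edgeR's quasi-likelihood test (Benjamini-Hochberg adjusted p below 0.05 over all 13088 genes tested), where 17.1% of all genes were higher and 20.0% lower, 37.1% in all. That excess of lower genes turned round when libraries were scaled by their totals alone (22.3% higher, 17.4% lower) and in limma on the FPKM values (21.7% higher, 17.2% or 17.3% lower). With the study's further requirement of a fold change above 2, Pdgfc and Pdgfd remained, both lower, where 7.78% of all genes were lower and 3.87% higher. The median log2 fold change was 0.20 over the 9 ligands and 0.00 over all genes tested.

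**Figure D1:**
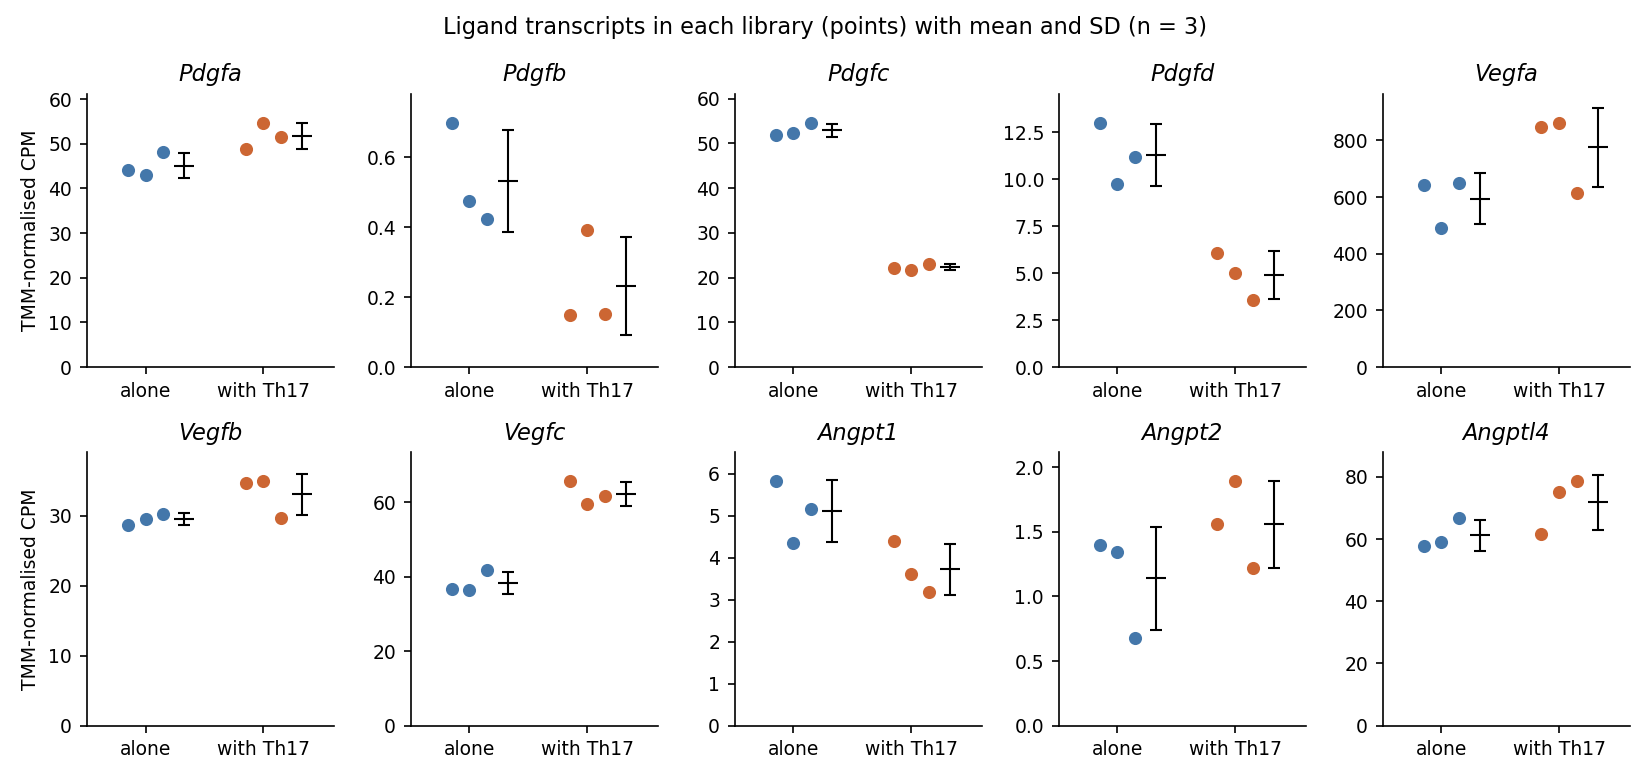
TMM-normalised CPM (vertical axes, each from 0) of the 10 ligand genes in each library (points) with the mean and SD of each group (n = 3). The groups are apart for Pdgfa, Pdgfb, Pdgfc, Pdgfd and Vegfc and overlap for the other 5 ligands. For Pdgfb they are apart through scaling only, since the nearest libraries of the groups both had 5 counts. The scales differ between panels, from below 1 CPM for Pdgfb to over 490 CPM for Vegfa.

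Pdgfc encodes PDGF-C, a ligand of PDGFRα that is secreted with a CUB domain and activated by proteolysis. The gene (ENSMUSG00000028019) lies on the plus strand at chr3:81036416-81214040 on GRCm38. It had 667, 664 and 646 counts in cells alone and 298, 277 and 304 with Th17 cells. The highest coculture library therefore lay far below the lowest library of cells alone, and the spread within either group was small. The normalised level was 52.9 ± 1.49 CPM alone and 22.3 ± 0.703 CPM with Th17 cells (SD, n = 3), 2.37-fold lower (log2 fold change −1.24, standard error 0.076, edgeR adjusted p = 2.42e-06). Its exons share 147 bases with Gm16000, an antisense gene with 0 counts in all 6 libraries.

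Pdgfd encodes PDGF-D, the CUB-domain ligand that acts mainly through PDGFRβ. The gene (ENSMUSG00000032006, chr9:6168612-6378843, plus strand) had 168, 123 and 133 counts alone and 82, 64 and 47 with Th17 cells. The groups did not overlap, although the coculture libraries were more spread than for Pdgfc. The level was 11.3 ± 1.66 CPM alone and 4.90 ± 1.27 CPM in coculture (SD, n = 3), 2.31-fold lower. The log2 fold change was −1.21 with a standard error of 0.207 and an edgeR adjusted p of 0.00168. On the scale log2(FPKM + 1), where a low gene's change is understated, limma gave −0.74.

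Pdgfa encodes the A chain, whose homodimer signals through PDGFRα only. The gene (ENSMUSG00000025856, chr5:138976014-138997370, minus strand) had 570, 544 and 570 counts alone and 658, 696 and 677 with Th17 cells. All coculture libraries lay above all libraries of cells alone, by a narrow margin once scaled (highest alone 48.2 CPM, lowest with Th17 cells 48.9 CPM). The levels were 45.1 ± 2.72 and 51.7 ± 2.88 CPM (SD, n = 3). The difference of 0.20 on the log2 scale (standard error 0.081) did not pass edgeR's test (adjusted p = 0.0883), and it passed when libraries were scaled by their totals alone (0.26, adjusted p = 0.0307) and in limma on log2(FPKM + 0.1) (0.26, adjusted p = 0.0322) and log2(FPKM + 1) (0.23, adjusted p = 0.0330). Pdgfa did not pass in the other 12 of 15 alternatives. Its exons share 813 bases with the antisense gene 6330403L08Rik, which had 52, 47 and 43 counts alone and 102, 62 and 56 with Th17 cells. Whether the counting used strand was not given in the sources used here, so reads from these bases cannot be told apart.

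Pdgfb, whose B chain binds both receptors and is typically made by endothelial cells and platelets, was near the limit of detection. The gene (ENSMUSG00000000489, chr15:79995900-80014808, minus strand) had 9, 6 and 5 counts alone and 2, 5 and 2 with Th17 cells. It did not pass the filter on low counts. Summed over libraries there were 20 and 9 counts, a ratio of coculture to alone of 0.428 in CPM with an exact 95% interval of 0.171 to 0.983 that covers counting error only.

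The make-up of the PDGF transcripts moved with these differences. Within each library, the deposited FPKM values (fragments scaled to gene length and library total, a scale on which genes can be compared) of the 4 PDGF ligands were summed and each ligand given as a percent of the sum. Pdgfa made up 45.0%, 46.2% and 47.5% alone and 67.5%, 71.0% and 71.0% with Th17 cells, a mean difference of 23.6 percentage points. Pdgfc went from 37.2%, 39.8% and 38.0% to 21.6%, 20.0% and 22.5%, a difference of −17.0 points. Pdgfd went from 16.5%, 13.0% and 13.8% to 10.5%, 8.14% and 6.14%, a difference of −6.20 points that was −4.10 points in shares of raw counts. By FPKM the PDGFRα-specific A chain was thus the leading PDGF transcript in all libraries. In raw counts, not scaled to gene length, Pdgfc exceeded Pdgfa in cells alone (667, 664 and 646 against 570, 544 and 570). The groups did not overlap in their FPKM shares of Pdgfa, Pdgfc and Pdgfd. Each of these differences in share had an exact two-sided permutation p of 0.1, the smallest that 3 against 3 libraries allow (0.133 after adjustment over the 8 shares compared). The design therefore cannot reach 0.05 for a share. The shares of a library are parts of the same sum, so they are not separate results. A fall in Pdgfc and Pdgfd alone raises the share of Pdgfa, whose own change did not pass edgeR's test. Pdgfb was 0.976% alone and 0.552% with Th17 cells, and its groups overlapped (exact permutation p = 0.3, adjusted 0.343).

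**Figure D2:**
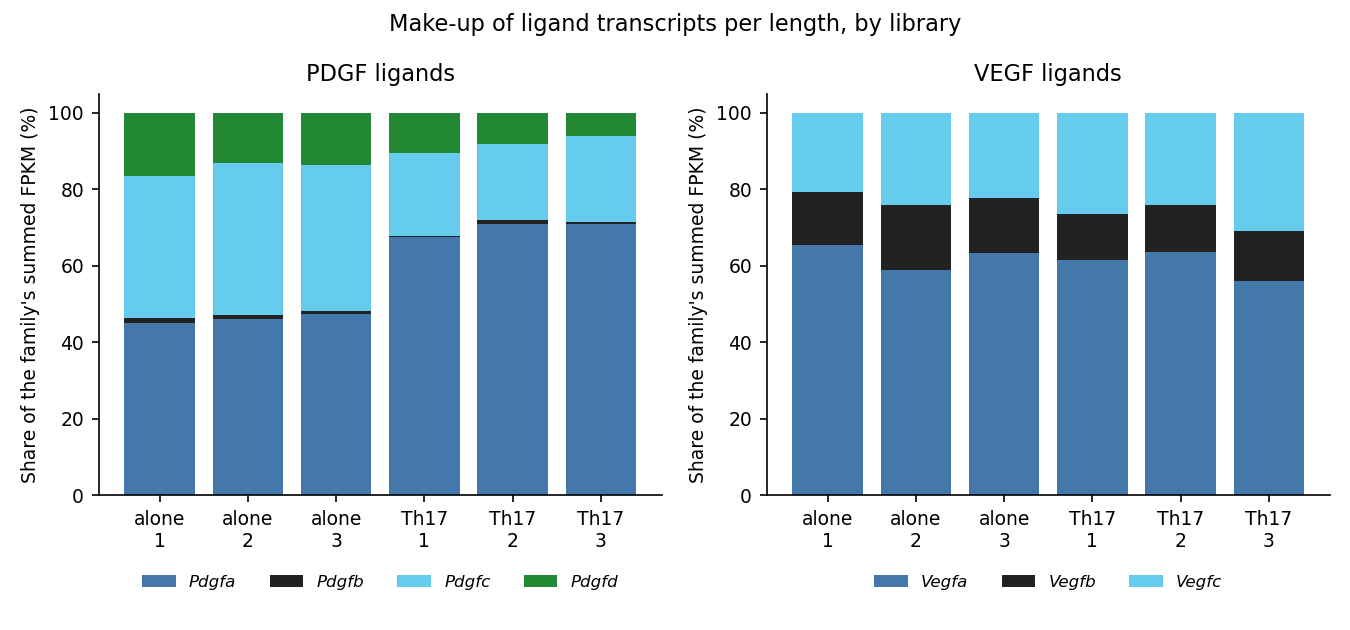
Share (percent, vertical axis) of each ligand in the summed FPKM of the 4 PDGF ligands (left) and the 3 VEGF ligands of the set (right), a stacked bar for each library. Pdgfa holds 45.0% to 47.5% of PDGF transcripts alone and 67.5% to 71.0% with Th17 cells, whereas Vegfa holds the largest part of the VEGF transcripts in all 6 libraries.

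Vegfc, encoding VEGF-C, which binds the receptors encoded by Flt4 and, once fully processed, Kdr, was the ligand that rose. The gene (ENSMUSG00000031520, chr8:54077532-54186454, plus strand) had 473, 462 and 493 counts alone and 883, 756 and 811 with Th17 cells. The lowest coculture library lay well above the highest library of cells alone. The level was 38.3 ± 2.93 CPM alone and 62.2 ± 3.17 CPM with Th17 cells (SD, n = 3), 1.63-fold higher. The log2 fold change was 0.70 (standard error 0.084, edgeR adjusted p = 0.000192), under the study's fold limit.

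Vegfa, encoding the main endothelial growth factor and a classical target of hypoxia-inducible factors, was the most abundant ligand. The gene (ENSMUSG00000023951, chr17:46016993-46032377, minus strand) had 8290, 6230 and 7694 counts alone and 11391, 10974 and 8096 with Th17 cells. In CPM the groups overlapped: the third coculture library (616 CPM) lay below 2 of the libraries of cells alone (643 and 650 CPM), while the other coculture libraries (847 and 862 CPM) lay above all of them. The means were 595 ± 89.4 and 775 ± 138 CPM (SD, n = 3), a log2 fold change of 0.38 (standard error 0.143, 95% interval 0.06 to 0.70) with an edgeR adjusted p of 0.0658. The call depended on the setting: Vegfa passed in DESeq2 (0.38, adjusted p = 0.0123), without the filter on low counts (0.38, adjusted p = 0.0360), with scaling by library totals (0.44, adjusted p = 0.0342) and without the third coculture library (0.52, edgeR adjusted p = 0.00736). In the other 11 of 15 alternatives Vegfa did not pass. With each library left out in turn, the log2 fold change was 0.26 to 0.52 (edgeR adjusted p from 0.00736 to 0.195). Gene counts do not separate the splice forms of Vegfa.

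Vegfb (ENSMUSG00000024962, chr19:6982473-6987651, minus strand) had 369, 374 and 358 counts alone and 465, 444 and 389 with Th17 cells. As for Vegfa, the third coculture library was the low one: at 29.6 CPM it lay within the range of cells alone (28.6 to 30.3 CPM), and the others were at 34.6 and 34.9 CPM. The log2 fold change was 0.16 (standard error 0.093, edgeR adjusted p = 0.203). Without the third coculture library it was 0.24 (edgeR adjusted p = 0.0480). Vegfb did not pass in the other 14 of 15 alternatives, and leaving out each library gave 0.12 to 0.24 (edgeR adjusted p up to 0.400).

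Vegfa led the VEGF transcripts of the set in all libraries. It held 62.5% ± 3.34 of the summed FPKM of the 3 ligands alone and 60.4% ± 3.86 with Th17 cells (SD, n = 3), and the groups overlapped (exact permutation p = 0.6, adjusted 0.600). Vegfc held 20.6%, 24.1% and 22.4% alone and 26.3%, 24.1% and 31.0% with Th17 cells, a difference of 4.79 points, and the nearest libraries of the groups were equal to the digits printed. The difference was 2.87 points without the third coculture library, 2.28 points with GENCODE exon lengths and 1.46 points in shares of raw counts. Vegfb went from a mean of 15.1% to 12.5%, a difference of −2.60 points that was −1.63 points without the second library of cells alone, −1.61 points with exon lengths and −0.680 points in shares of raw counts. For both, the exact permutation p was 0.1, the smallest possible (0.133 adjusted). Pgf, a ligand of the same family outside the set, is not in these shares. It stood at 41.2 FPKM alone and 31.1 FPKM with Th17 cells.

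The angiopoietins were rare. Angpt1, encoding the Tie2 agonist made by mesenchymal cells (ENSMUSG00000022309, chr15:42424727-42676977, minus strand), had 75, 55 and 61 counts alone and 59, 46 and 42 with Th17 cells. The groups overlapped at 5.11 ± 0.739 and 3.73 ± 0.605 CPM (SD, n = 3), and the log2 fold change of −0.45 (standard error 0.200) had an edgeR adjusted p of 0.109. Its exons share 737 bases with the antisense gene Gm17473, which had 0 counts in all libraries.

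Angpt2, encoding the context-dependent Tie2 ligand stored by endothelial cells (ENSMUSG00000031465, chr8:18690263-18741562, minus strand), had 18, 17 and 8 counts alone and 21, 24 and 16 with Th17 cells. Its groups overlapped too, at 1.14 ± 0.401 and 1.55 ± 0.334 CPM (SD, n = 3). The log2 fold change of 0.43 had a 95% interval of −0.36 to 1.22 (edgeR adjusted p = 0.366), so that neither a fall nor a rise could be told from no change at this depth. Without the third library of cells alone it was 0.18, and leaving out each library in turn gave 0.18 to 0.60. Of the summed FPKM of the angiopoietin pair, Angpt2 made up 21.1%, 25.7% and 12.8% alone and 28.4%, 36.8% and 29.8% with Th17 cells, without overlap. The difference was 11.8 points (exact permutation p = 0.1, the smallest possible, 0.133 adjusted) and rests on between 8 and 24 counts of Angpt2 a library. Angpt4, outside the pair, stood above Angpt1 in cells alone (3.26 against 1.17 FPKM), and was at 0.825 FPKM with Th17 cells.

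Angptl4 encodes a secreted inhibitor of lipoprotein lipase that responds to PPAR ligands, fasting and low oxygen. The gene (ENSMUSG00000002289, chr17:33773750-33781575, minus strand) had 744, 748 and 791 counts alone and 830, 958 and 1033 with Th17 cells. The first coculture library (61.7 CPM) lay within the range of cells alone (57.7 to 66.9 CPM), whereas the others were at 75.2 and 78.6 CPM. The log2 fold change was 0.23 (standard error 0.105, edgeR adjusted p = 0.117). It was 0.33 without the first coculture library (edgeR adjusted p = 0.0233). Angptl4 did not pass in the other 14 of 15 alternatives, and leaving out each library gave 0.16 to 0.33 (edgeR adjusted p up to 0.295).

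Among the 9 ligands tested, the groups did not overlap in CPM for Pdgfa and Vegfc, both higher with Th17 cells, and for Pdgfc and Pdgfd, both lower. Outside the test, Pdgfb was lower without overlap through scaling only, since its nearest libraries both had 5 counts. Among all genes tested, 24.3% were higher and 26.1% lower without overlap, 50.4% in all.

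Ordered by FPKM, the ligands ran from Vegfa through Vegfc, Vegfb, Angptl4, Pdgfa, Pdgfc, Pdgfd, Angpt1 and Angpt2 to Pdgfb, and the order of the means was the same in both groups. Vegfa stood at 56.1 ± 8.46 FPKM alone and 76.2 ± 13.2 FPKM with Th17 cells (SD, n = 3), followed by Vegfc at 19.9 and 33.8 FPKM. Vegfb stood at 13.4 and 15.7 FPKM, Angptl4 at 11.5 and 14.1 FPKM, and Pdgfa at 8.46 and 10.1 FPKM. Pdgfc, at 7.00 FPKM alone and 3.09 FPKM with Th17 cells, was close behind Pdgfa in cells alone. Below it came Pdgfd (2.65 and 1.19 FPKM), Angpt1 (1.17 and 0.896 FPKM), Angpt2 (0.292 and 0.416 FPKM) and Pdgfb (0.178 and 0.0808 FPKM). Neighbours whose libraries overlapped were Angpt2 and Pdgfb in cells alone, and Vegfb with Angptl4 and Pdgfd with Angpt1 in coculture.

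These levels depend on the gene length that the authors' FPKM used. The length implied by the counts was 10385 bases for Vegfa and 1881 bases for Vegfc, against 4285 and 2449 bases of merged GENCODE M21 exons. On CPM per kilobase of merged exons, a scale chosen after seeing the data, Vegfa still led (139 alone, 181 with Th17 cells). Vegfc, however, at 15.6 CPM per kilobase in cells alone, lay behind Vegfb (18.4) and Angptl4 (17.3), and in coculture, at 25.4, it came next to Vegfa. On that scale Pdgfa made up 50.6% of PDGF transcripts alone and 73.4% with Th17 cells. Of the VEGF ligands of the set, Vegfa made up 80.2% and 79.5%, and Vegfc 9.11% and 11.4%. Fold changes between groups within a gene are not touched by the length.

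**Figure D3:**
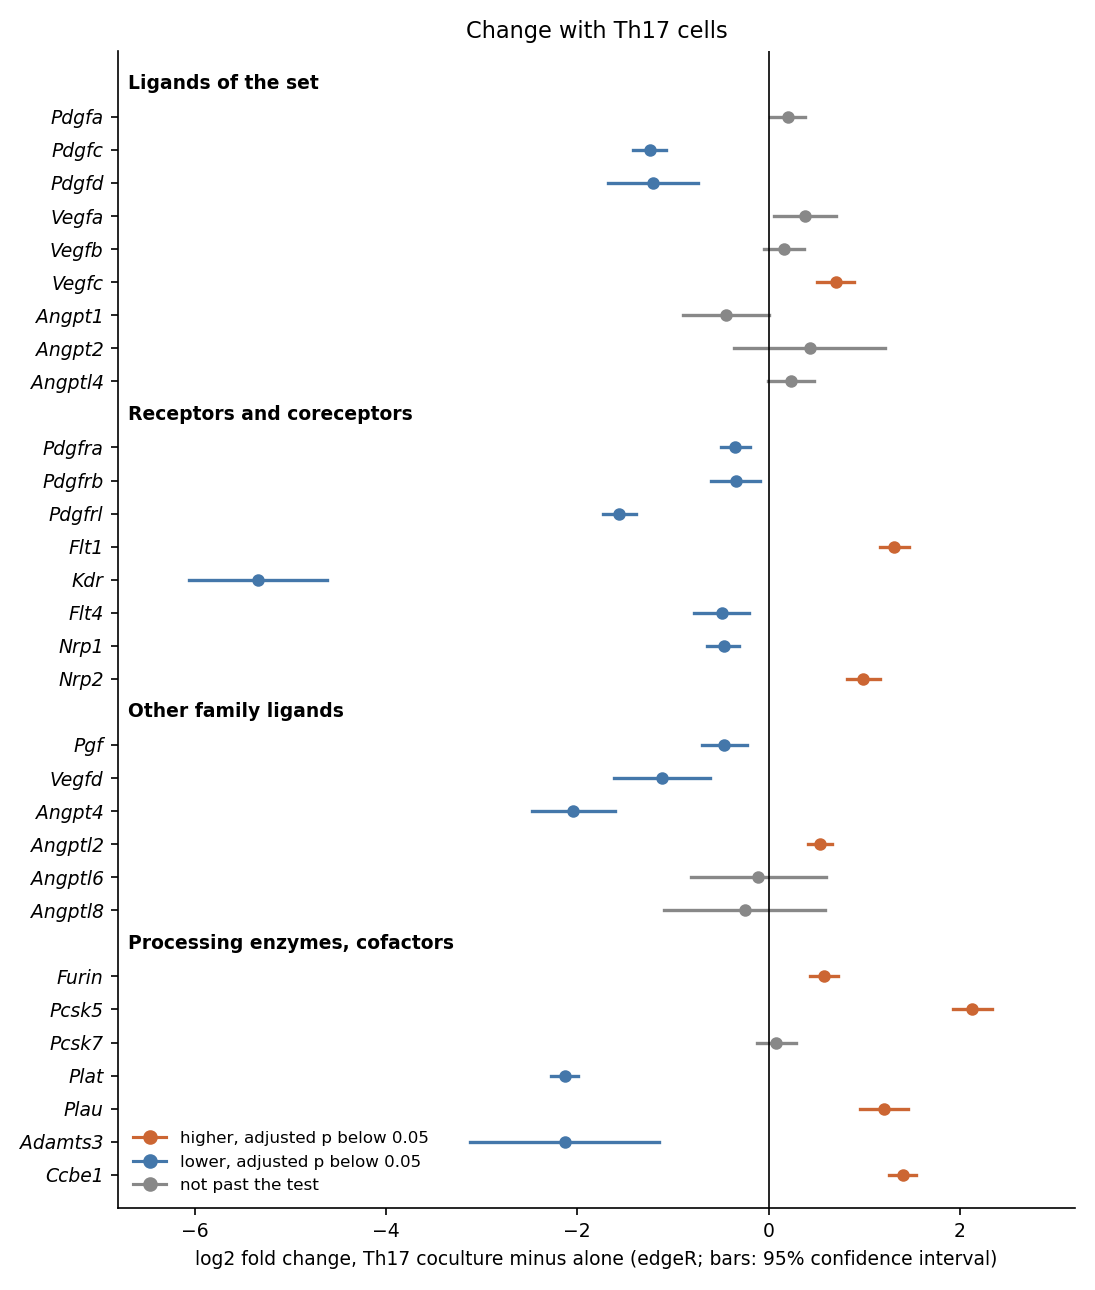
Log2 fold change (horizontal axis, Th17 coculture minus alone, from edgeR) with its 95% confidence interval for each ligand of the set that was tested and for the tested receptors, other ligands of the families and processing genes. Pdgfc and Pdgfd lie left of 0 and Vegfc right of it, and Kdr, with 1 or 2 counts in each coculture library, lies farthest left, a fitted value that depends on the prior count. The intervals are not adjusted for the number of genes, and those of Pdgfa (0.01 to 0.38) and Vegfa (0.06 to 0.70) lie right of 0 although neither passed the test.

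Of 10 listed receptors and coreceptors of these ligands, 8 could be tested, and all 8 passed: 2 rose and 6 fell, with a median log2 fold change of −0.41. Over all genes tested, 17.1% were higher and 20.0% lower, 37.1% in all. Flt1, which encodes a receptor for VEGF-A and VEGF-B that also circulates in a soluble form, had 1453, 1533 and 1383 counts alone and 4067, 3857 and 3513 with Th17 cells. All coculture libraries were far above those of cells alone, at 291 ± 20.5 against 117 ± 4.17 CPM (SD, n = 3), a log2 fold change of 1.31 (standard error 0.070, edgeR adjusted p = 9.75e-07). Gene counts do not separate its membrane and soluble forms. Kdr, encoding the main signalling receptor for VEGF-A, had 65, 74 and 68 counts alone and 2, 1 and 2 with Th17 cells. In summed CPM it was 43.6-fold lower, with an exact 95% counting interval of 18.4 to 136 (edgeR adjusted p = 1.97e-06). Flt4, the receptor of VEGF-C, fell by 0.49 on the log2 scale (31.6 to 22.5 CPM, edgeR adjusted p = 0.0149), a call lost without the second library of cells alone. The coreceptor Nrp2, which binds VEGF-C, rose from 132 ± 4.76 to 262 ± 22.6 CPM (SD, n = 3; log2 fold change 0.99, edgeR adjusted p = 1.00e-05), and Nrp1, which binds VEGF-A, fell from 100 to 72.0 CPM (edgeR adjusted p = 0.000781).

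Both PDGF receptors were lower with Th17 cells, by small amounts. Pdgfra stood at 179, 180 and 178 CPM alone and 150, 144 and 129 CPM with Th17 cells, without overlap, a log2 fold change of −0.35 (standard error 0.068, edgeR adjusted p = 0.00359). Pdgfrb went from 250 ± 9.81 to 197 ± 33.5 CPM (log2 fold change −0.34, standard error 0.113, edgeR adjusted p = 0.0404), and this call was lost in 6 of 15 alternatives, among them the fits without any of the 3 libraries of cells alone. Both genes are also in the list of fibroblast markers. Pdgfrl, a secreted receptor-like protein, fell from 72.4 to 24.5 CPM (log2 fold change −1.56, edgeR adjusted p = 5.76e-07). Of the angiopoietin receptors, Tek had between 2 and 13 counts and was not tested, and Tie1 was at 0 in all libraries.

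PDGF-C, PDGF-D and VEGF-C are made as inactive or partly active precursors, and the genes of their processing were counted beside them. Of 8 listed genes, 7 were tested: 4 rose and 2 fell, beside 17.1% and 20.0% of all genes, with a median log2 fold change of 0.58. Plat, encoding tissue plasminogen activator, which cleaves PDGF-C, had 2474, 2535 and 2205 counts alone and 594, 568 and 568 with Th17 cells. It was thus lower in the same libraries as Pdgfc, at 193 ± 6.96 against 44.0 ± 0.719 CPM (SD, n = 3; log2 fold change −2.13, standard error 0.063, edgeR adjusted p = 4.09e-08). Plau, encoding urokinase, which cleaves PDGF-D, had 4221, 4218 and 3911 counts alone and 8588, 9565 and 11881 with Th17 cells. It was higher while Pdgfd was lower, with a log2 fold change of 1.21 (standard error 0.110, edgeR adjusted p = 3.36e-05).

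The processing genes of VEGF-C also moved in both directions. Ccbe1, a secreted cofactor of VEGF-C cleavage, rose from 180 ± 7.50 to 474 ± 17.6 CPM (SD, n = 3; log2 fold change 1.40, edgeR adjusted p = 2.68e-07). Adamts3, the protease that works with it, had 36, 33 and 24 counts alone and 14, 4 and 4 with Th17 cells, a log2 fold change of −2.13 (standard error 0.435, edgeR adjusted p = 0.00436) that became −2.96 without the first coculture library. The proprotein convertases Furin (158 to 236 CPM, log2 fold change 0.58, edgeR adjusted p = 0.000131) and Pcsk5 (21.7 ± 2.10 to 95.2 ± 3.38 CPM, log2 fold change 2.13, edgeR adjusted p = 2.05e-07) rose, and Pcsk7 had a log2 fold change of 0.08 (edgeR adjusted p = 0.513).

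**Figure D4:**
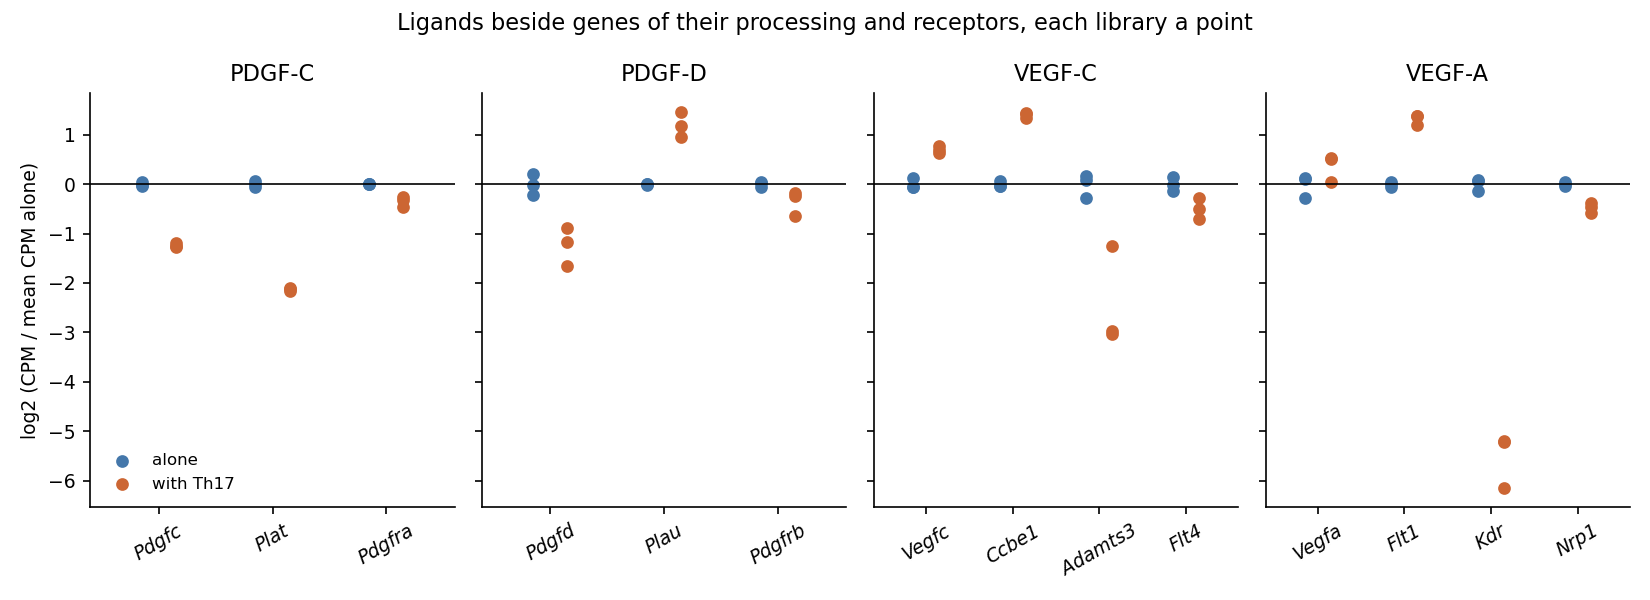
Log2 of each library's CPM over the mean CPM of cells alone (vertical axis) for PDGF-C, PDGF-D, VEGF-C and VEGF-A, each with genes of its processing and receptors; points are the 3 libraries of each group. Pdgfc and Plat are both lower with Th17 cells, Pdgfd is lower and Plau higher, and Vegfc and Ccbe1 are higher with Adamts3 lower; Kdr rests on 1 or 2 counts in the coculture libraries.

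Among 9 other ligands of the families, 6 were tested, of which 1 rose and 3 fell (median log2 fold change −0.36). Of all genes, 17.1% rose and 20.0% fell. Vegfd, the other lymphatic growth factor, which the table lists as Figf, had 73, 79 and 56 counts alone and 44, 28 and 29 with Th17 cells. It was lower where Vegfc was higher, with a log2 fold change of −1.11 (standard error 0.223, edgeR adjusted p = 0.00399). Pgf, encoding placental growth factor, a ligand of the Flt1 product, fell from 66.6 to 48.2 CPM (log2 fold change −0.47, edgeR adjusted p = 0.00721). Angpt4 fell from 7.78 to 1.88 CPM (log2 fold change −2.04, edgeR adjusted p = 3.66e-05), and Angptl2, a secreted angiopoietin-like protein, rose from 266 to 385 CPM (log2 fold change 0.54, edgeR adjusted p = 8.40e-05).

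Vegfa and Angptl4 are known targets of hypoxia-inducible factors, so genes of that response were counted. Of 7 oxygen-sensing genes, all were tested, and 1 rose and 2 fell, beside 17.1% and 20.0% of all genes. Epas1, encoding HIF-2α, rose from 12.0 to 55.2 CPM (log2 fold change 2.20, edgeR adjusted p = 1.39e-06), Egln1 (−0.66, edgeR adjusted p = 5.95e-05) and Vhl (−0.54, edgeR adjusted p = 0.000819), which take part in the breakdown of these factors, fell, and Hif1a had a log2 fold change of −0.11 (edgeR adjusted p = 0.176). Of 12 other hypoxia targets, all tested, 3 rose and 6 fell (median −0.19), beside the same shares of all genes. Adm, encoding the vasodilator adrenomedullin, rose (0.79, edgeR adjusted p = 0.000345), and Car9 (−2.13, edgeR adjusted p = 2.11e-05) and Ndrg1 (−1.78, edgeR adjusted p = 1.53e-07) fell, while Slc2a1, the glucose transporter, stood at −0.05 (edgeR adjusted p = 0.511). The list thus moved in both directions, and the calls of Pgk1, Ldha and Egln3 changed in 7, 11 and 7 of 15 alternatives.

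Lpl, encoding the lipase that ANGPTL4 inhibits, fell from 197 to 72.4 CPM (log2 fold change −1.45, standard error 0.068, edgeR adjusted p = 4.56e-07), and its other partners were Lmf1, with a log2 fold change of −0.08, and Gpihbp1, at 0 in all libraries. Of 9 PPAR targets beside Angptl4, 8 were tested, of which 3 rose and 2 fell (median 0.14). Of all genes, 17.1% rose and 20.0% fell. Plin2, a lipid droplet protein, rose (0.61, edgeR adjusted p = 0.000147), and so did Cpt1a (0.57, edgeR adjusted p = 0.000881). Fabp4, a fatty acid binding protein, fell (−0.79, edgeR adjusted p = 0.00543). Pparg itself had a log2 fold change of 0.92 that did not pass edgeR's test (adjusted p = 0.0544) and passed under 5 alternatives.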

How the data were processed

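RNA was sequenced from 6 libraries of mouse renal fibroblasts, 3 for each of 2 groups, assigned by the sample labels. The authors prepared libraries with a VAHTS kit for the NovaSeq, filtered reads with Seqtk, aligned them to mm10 with HISAT2 2.0.4 and quantified genes with StringTie 1.3.3b, as their processing notes and methods state. They deposited raw counts per gene, which were used here for all tests, and FPKM values, used here for levels and shares. Strand use and the assignment of reads that fit several genes were not given in the sources used here. Of the gene identifiers, 34267 occur in GENCODE M21 (GRCm38) and 99.9% of these lie at its position, so coordinates are those of the table.

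The counts were tested with edgeR 4.0.16 in R 4.3.3 (filterByExpr with a minimum count of 10, TMM scaling, quasi-likelihood F test, Benjamini-Hochberg adjustment over all genes kept), which are the tool, scaling and 0.05 threshold the study's methods name. The standard error is the log2 fold change over the square root of F. CPM values are counts scaled to library size with the TMM factors. Shares of FPKM were compared by an exact two-sided permutation test over libraries (SciPy 1.17.1). Alternatives were DESeq2 1.42.0, limma 3.58.1 on log2(FPKM + 1) and log2(FPKM + 0.1), other scaling and filters, a replicate block, a test against a minimum fold change (glmTreat), shares of raw counts, leaving out each library, and, added after seeing the data, exon lengths of GENCODE. Motifs were searched in RefSeq windows of GRCm38.p6. The totals of 12050529 to 13209581 counts set the precision, and the exact intervals of count ratios and the floor of 3 counts reflect counting error alone, since PCR copies cannot be told from separate molecules without molecular identifiers.

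The ligands and the lists of related genes were chosen with earlier results of these data known. All 10 ligands are named. From each list up to 4 called genes are named, those with the largest changes in each direction and 50 or more counts on average in the group where the gene is higher, plus the receptors; a few others, partners of a ligand, genes that were not called, and genes whose call changed with the setting, were chosen after their values were seen.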

Additional observations from a re-analysis of the deposited data

How the results depend on the processing

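Pdgfc (−1.27 to −0.97), Pdgfd (−1.40 to −0.74) and Vegfc (0.66 to 0.76) kept their direction and their call in the 15 alternatives that test against no change. Against a fold change of 2 (glmTreat), Pdgfc kept its call (adjusted p = 0.0212), and Pdgfd (−1.21, adjusted p = 0.651) and Vegfc (0.70) lost theirs, Vegfc also under the required fold change above 2. Ligands called higher, 1 in the report (17.1% of all genes higher), numbered 2 with DESeq2 (15.5%), without the filter (11.5%) and in limma with either pseudocount (21.7%). They numbered 3 with scaling by library totals (22.3%), and 0 with glmTreat (1.86%) or a required fold change above 2 (3.87%). When a library was left out they numbered 1 to 3 (13.2% to 18.0% of all genes higher). Ligands called lower numbered 1 with glmTreat (4.19% of all genes lower). Pdgfa passed with library totals (0.26) and in limma (0.26 with 0.1 added to the FPKM, 0.23 with 1 added). Vegfa passed in DESeq2 (0.38), without the filter (0.38) and with library totals (0.44). Leaving out 1 library at a time gave 0.26 to 0.52 for Vegfa, 0.12 to 0.24 for Vegfb, 0.18 to 0.60 for Angpt2 and 0.16 to 0.33 for Angptl4, and ended no call of a ligand. Of all genes, 4856 were called, 791 with glmTreat and 1524 with the fold requirement. Of 62 genes tested from the related lists, 17 were higher (5 with glmTreat, 6 with the fold requirement) and 24 lower (9 and 11). Of all genes tested, 17.1% were higher (1.86% with glmTreat, 3.87% with the fold requirement) and 20.0% lower (4.19% and 7.78%). Shares of raw counts in place of FPKM gave differences of −19.9 points for Pdgfc, −4.10 for Pdgfd, −0.68 for Vegfb and 1.46 for Vegfc. The causes were not tested. Angpt2 gave no value with at least 10 counts required in every library. With a replicate block 4513 genes were called, 4395 of them shared, and no call of a ligand changed. The deviations of same-numbered libraries correlated at 0.016, −0.026 and −0.004, so no shared deviation was visible. These values cannot show whether same-numbered libraries were paired in the experiment. With 3 libraries a group, single values could reach an exact p of 0.1 only, and ligands under about 20 counts (Pdgfb, Angpt2) could be described but hardly compared.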

Other observations

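Genes that encode feedback regulators of receptor tyrosine kinases, through which PDGF and VEGF ligands signal, moved in both directions. Of 10 listed, all tested, 3 rose and 2 fell (median log2 fold change −0.02), beside 17.1% and 20.0% of all genes. Phlda1 (1.37, edgeR adjusted p = 1.03e-06) and Dusp4, a phosphatase of MAP kinases (0.92, edgeR adjusted p = 4.38e-06), rose. Spry1, a Sprouty inhibitor, fell by 1.54 on the log2 scale (16.7 to 5.73 CPM, edgeR adjusted p = 6.29e-05), and Egr1, an immediate early transcription factor, fell by 0.59 (edgeR adjusted p = 0.0122).

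Over the 6 libraries, the genes whose log2 CPM ran most like that of Vegfc, among 9740 genes with a mean of at least 100 counts, were Nqo2 (r = 0.998), Slc25a37 (0.9971) and Trim2 (0.997). Those most like Pdgfc were Daxx (r = 0.9998), Isg15 (0.9996) and Ifi47 (0.9994). These values are a description: all points share the contrast between the same 2 groups, so that any gene with a clear change and little spread scores high.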
